A study of Mus musculus with 6 samples.

Results

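The arms of miR-219a, miR-338 and miR-138, the miRNAs best known for promoting or marking the maturation of oligodendrocytes (OLs), were followed in small RNA sequencing of mouse oligodendrocyte progenitor cells (OPCs). The members were chosen by name, with earlier results of these data known. All 8 named arms were listed among the 1506 miRNAs of the table. The cells were primary cortical OPCs of wild-type C57BL/6 mouse pups, shaken off mixed glial cultures. Of 6 libraries, 3 came from OPCs treated with fibrinogen at 2.5 mg/mL, a clotting protein of plasma that reaches the brain when its vessels leak, and 3 from untreated OPCs, called control in the labels. The column headers number the mice 1 to 3 in each group and do not say whether a number stands for the same mouse in both. No source used here gives the duration of treatment or says whether a culture pooled several pups, so the errors below measure the spread between libraries, which may be technical.

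A miRNA hairpin is cut into a duplex of a 5p and a 3p arm, of which usually the more abundant one is loaded into Argonaute and pairs with mRNAs through its seed, bases 2 to 8. In mice, miR-219 and miR-338 are induced as OPCs leave the cell cycle, and they repress genes that keep the cells immature, among them Sox6, Hes5 and, for miR-219, Pdgfra, the receptor of the growth factor PDGF-AA. miR-138 is likewise enriched in OLs and is linked to their early differentiation. OPCs that take this path stop dividing, switch on myelin genes such as Mbp and wrap axons.

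The arms are printed below 5′ to 3′ with the seed in capitals, since the seed decides which mRNAs an arm can pair with. RefSeq sequences of the build GRCm38.p6 were matched for 7 of the 8 arms, all except miR-219a-2-3p. None of the 7 seeds was shared with any other of the 1679 mature mouse miRNAs of that table, so that each arm stood as its own seed family.
miR-219a-5p: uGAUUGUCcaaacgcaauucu
miR-338-3p: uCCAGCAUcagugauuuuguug
miR-138-5p: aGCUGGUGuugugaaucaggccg
miR-219a-1-3p: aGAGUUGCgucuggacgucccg
miR-338-5p: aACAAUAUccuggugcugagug
miR-138-1-3p: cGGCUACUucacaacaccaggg
miR-138-2-3p: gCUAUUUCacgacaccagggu

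These arms come from 5 hairpins. On GRCm39, with GENCODE annotation, Mir219a-1 lies on chromosome 17 from 34243957 to 34244066 and Mir219a-2 on chromosome 2 from 29735643 to 29735739, each overlapping an exon of a long non-coding RNA, Gm26940 and Gm54109. Both hairpins give the same miR-219a-5p, and only their 3p arms tell them apart. Mir338 is found on chromosome 11 (119905591 to 119905688) within an Aatk intron, Aatk being a gene for a kinase of neural cells. Mir138-1 is on chromosome 9 (122511941 to 122512039), within an intron of 9530059O14Rik and overlapping an exon of a further unnamed long non-coding RNA. Mir138-2 lies on chromosome 8 from 95050939 to 95051009, over an exon of the long non-coding RNA C78859, and gives the same miR-138-5p as Mir138-1.

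The table gives values called TPM. They are reads scaled to a common library total (RPM) without a correction for length, which matters little between arms of 21 to 23 bases. One read was worth 0.0669 to 0.0841 TPM, so whole reads could be recovered, 12120909 to 13624613 in the fibrinogen-treated and 11897645 to 14847034 in the untreated libraries. The recovered reads of miR-219a-5p and miR-138-5p were odd in 2 of 6 libraries each, so in those libraries they are not a number of reads listed once for each of 2 hairpins. A miRNA was tested if 3 or more libraries reached 1 TPM, which left 607, of which 7 were members. The groups were compared with limma on log2(TPM + 1), a scale that understates the change of rare miRNAs, and p-values were adjusted over the 607 (Benjamini-Hochberg). The median log2 fold change of all 607 was 0.125, and 0.00317 after median-of-ratios scaling, so fold changes are to be read against that shift.

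Together the 8 arms held 1.17% to 1.48% of the listed reads in fibrinogen-treated and 1.22% to 1.67% in untreated OPCs. Most of this was miR-138-5p, which made up 69.8% to 76.5% of the members' total in fibrinogen-treated and 71.1% to 78.5% in untreated OPCs and ranked 16th to 20th among known miRNAs in every library. miR-338-3p ranked 31st to 46th, miR-219a-2-3p 82nd to 132nd and miR-219a-5p 95th to 142nd. Far below came miR-138-2-3p, miR-138-1-3p and miR-338-5p, and miR-219a-1-3p was at the limit of detection. This order was the same in the means of both groups except for the 2 main miR-219a arms, whose levels in untreated OPCs lay within their spread, at 306 ± 74.0 TPM for miR-219a-2-3p and 314 ± 56.5 TPM for miR-219a-5p (SD, n = 3).

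**Figure D1:**
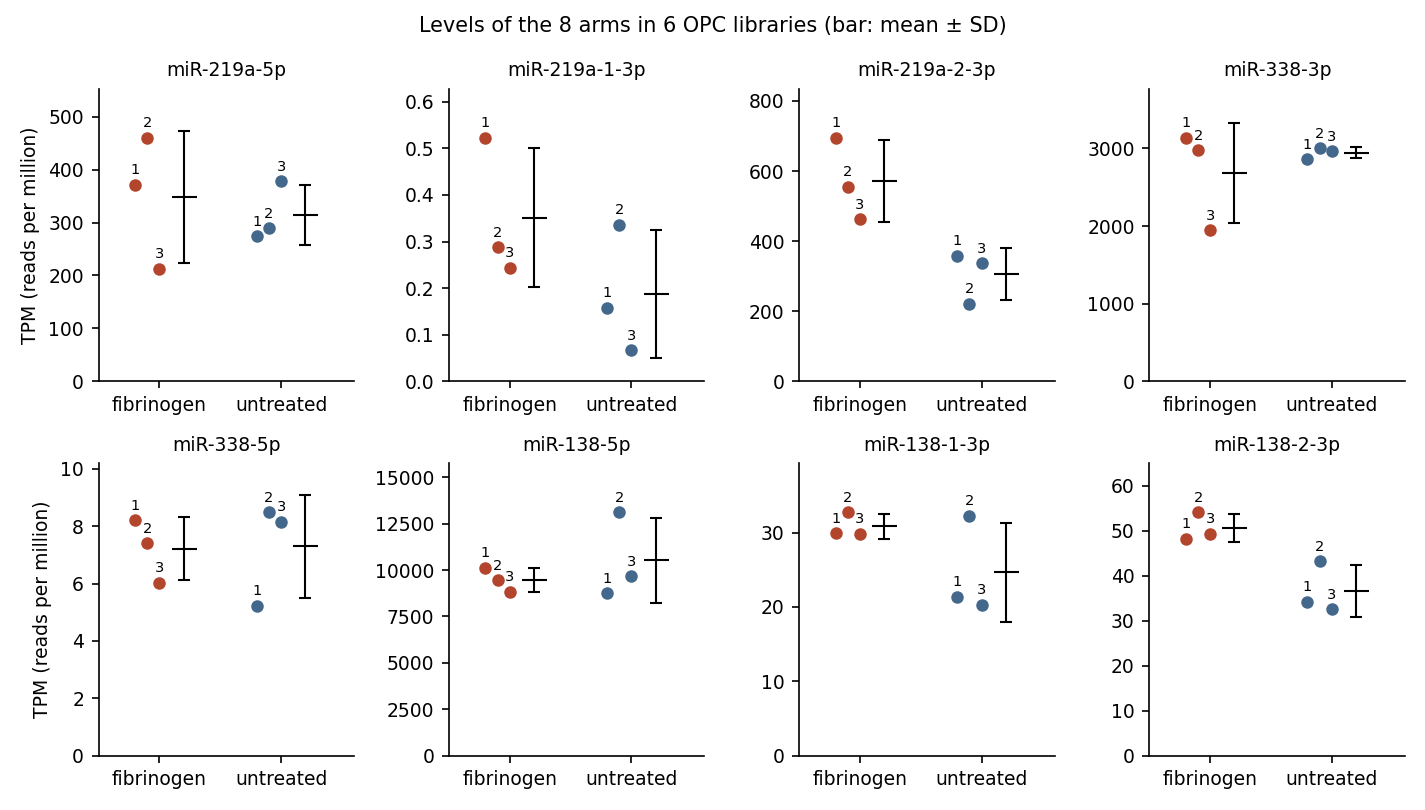
TPM of each arm in the 3 fibrinogen-treated (left) and 3 untreated (right) libraries, one panel per arm with its own axis from 0. Points carry the replicate number and bars give the mean ± SD. The groups are apart for miR-219a-2-3p and miR-138-2-3p, with the fibrinogen-treated libraries higher, and overlap for the other 6 arms.

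Against this background, none of the 7 members tested passed limma at an adjusted p under 0.05, where 17 of 607 miRNAs, or 2.8%, did, 2.14% higher and 0.659% lower with fibrinogen. At an unadjusted p under 0.05, 2 members, miR-219a-2-3p and miR-138-2-3p, were higher and 0 lower, beside 20.1% of all miRNAs higher and 5.6% lower, 25.7% together. edgeR's quasi-likelihood test on the recovered reads called 0 members, and DESeq2 called 1 higher, miR-219a-2-3p, beside 4.45% of all miRNAs higher and 6.1% lower. The study used edgeR with an unadjusted p under 0.05 and a change of more than 1 on the log2 scale. Applied here to the limma values, which are not the study's own, these cutoffs were met by 0 members and 3.95% of all miRNAs. The fold changes of 5 members were above 0 and of 2 below 0, with a median of 0.0933, beside 0.125 and 62.9% above 0 over all 607. After median-of-ratios scaling 3 members were above 0 and 4 below.

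miR-219a-2-3p, the arm made only by the hairpin on chromosome 2, stood highest among the members. It had 695, 555 and 462 TPM in fibrinogen-treated OPCs, against 359, 222 and 338 TPM in untreated OPCs. All fibrinogen-treated libraries lay above all untreated ones, and the lowest untreated library, number 2, rested on 2635 reads. The means were 571 ± 117 and 306 ± 74.0 TPM (SD, n = 3 each), 1.86-fold higher with fibrinogen. The log2 fold change was 0.91 (standard error 0.23, 95% interval 0.37 to 1.45) with an unadjusted p of 0.00524 and an adjusted p of 0.0836 from limma, the 36th smallest p of 607. It was higher than the median of all miRNAs by 0.78. DESeq2 gave 0.75 with an adjusted p of 0.0253, and edgeR's quasi-likelihood test gave 0.75 with an adjusted p of 0.148.

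miR-219a-5p, the arm that both miR-219a hairpins share and the one known to promote OL differentiation, had 371, 460 and 213 TPM in fibrinogen-treated OPCs, against 274, 289 and 378 TPM in untreated OPCs. The groups overlapped: fibrinogen-treated library 3 was the lowest of all 6, and library 2 the highest. With 2616 reads in that lowest library, counting error is about 1.96%, far below this spread. The log2 fold change was 0.09 (standard error 0.29, 95% interval -0.59 to 0.77, adjusted p = 0.87 from limma), an interval that leaves room for a change in either direction. Its sign rested on the scaling and on single libraries. It was -0.04 after median-of-ratios scaling and -0.14 without fibrinogen-treated library 2, and it was 0.41 without fibrinogen-treated library 3.

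The other product of the miR-219a loci, miR-219a-1-3p from chromosome 17, had 7, 4 and 3 reads in the fibrinogen-treated libraries, against 2, 4 and 1 reads in the untreated libraries. These levels of 0.244 to 0.523 and 0.0669 to 0.336 TPM are near what 3 reads are worth, 0.201 to 0.252 TPM, so no difference was detectable at this depth and the arm was not tested. miR-219a-2-3p had 1330 to 1931 reads per read of miR-219a-1-3p in the fibrinogen-treated libraries, and 659 to 5053 in the untreated libraries. The miRNAs annotated on the opposite strands of these hairpins, Mir219b and Mir219c, gave at most 3 reads per arm in any library.

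miR-338-3p, the arm of miR-338 known to promote OL maturation, had 3137, 2975 and 1950 TPM in fibrinogen-treated OPCs, against 2863, 3002 and 2966 TPM in untreated OPCs. The untreated libraries were close together, with an SD of 2.45% of their mean, whereas the fibrinogen-treated ones had an SD of 23.9%, with library 3 at 0.638 times the mean of the other two. The log2 fold change was -0.16 (standard error 0.18, 95% interval -0.59 to 0.27, adjusted p = 0.587 from limma). Without fibrinogen-treated library 3 it was 0.05 (adjusted p = 0.813). The same library was also the lowest fibrinogen-treated one for miR-219a-5p, at 0.512 times the mean of the other two, for miR-219a-2-3p at 0.74 times, for miR-338-5p at 0.772 times and for miR-138-5p at 0.902 times. Its summed level of the miRNAs of endothelium and of immune cells was also the lowest of the fibrinogen-treated libraries, at 10599 and 1318 TPM. Its sums for neurons, mural cells, red blood cells and epithelium were not the lowest. The part of other cells in the low values was not tested.

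The opposite arm, miR-338-5p, was rare. It had 8.21, 7.40 and 6.02 TPM in fibrinogen-treated OPCs, against 5.23, 8.49 and 8.16 TPM in untreated OPCs, on 66 to 122 reads per library. The groups overlapped, and limma gave a log2 fold change of 0.0021 (standard error 0.23, 95% interval -0.53 to 0.53, adjusted p = 0.9995). Its sign has no weight, since it turned in 10 of 17 other settings. The miRNA of the opposite strand, miR-3065, gave at most 1 read per arm in a library.

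miR-138-5p, the most abundant member, had 10129, 9443 and 8824 TPM in fibrinogen-treated OPCs, against 8745, 13130 and 9675 TPM in untreated OPCs. Its fibrinogen-treated libraries were all within the range of the untreated ones, of which library 2 stood at 1.43 times the mean of the other two. In untreated library 2 the summed miRNAs of neurons, immune cells and red blood cells were also the highest of all libraries, at 128516, 2114 and 702 TPM. Those of endothelium, mural cells and epithelium were not the highest there. The part of other cells in the level of miR-138-5p was not tested. The log2 fold change of miR-138-5p was -0.13 (standard error 0.16, 95% interval -0.50 to 0.24, adjusted p = 0.606 from limma), and it was 0.04 without untreated library 2.

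The 3p arms of both miR-138 hairpins were far rarer than miR-138-5p, and their means were higher with fibrinogen. miR-138-2-3p had 48.2, 54.2 and 49.4 TPM in fibrinogen-treated OPCs, against 34.2, 43.2 and 32.6 TPM in untreated OPCs. The groups did not overlap, and the log2 fold change of 0.46 (standard error 0.16, 95% interval 0.08 to 0.84) had an unadjusted p of 0.0238 and did not pass after adjustment (adjusted p = 0.153 from limma). After median-of-ratios scaling it was 0.33. miR-138-1-3p had 29.9, 32.8 and 29.9 TPM in fibrinogen-treated OPCs, against 21.4, 32.3 and 20.3 TPM in untreated OPCs. Here untreated library 2 reached the fibrinogen-treated level while the other two lay below it, and limma gave 0.34 as log2 fold change (standard error 0.21, 95% interval -0.14 to 0.83, adjusted p = 0.33 from limma). After quantile normalization it was 0.04.

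**Figure D2:**
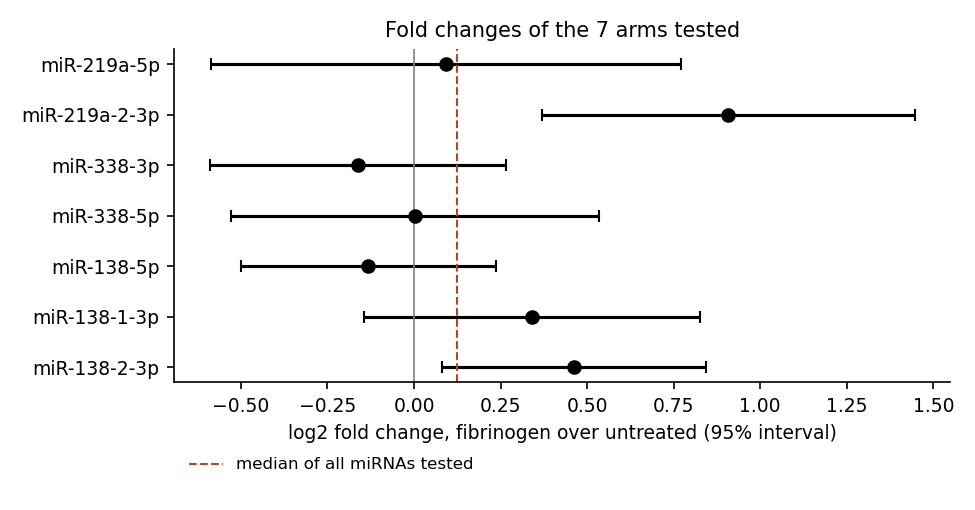
Log2 fold change of the 7 arms tested, fibrinogen-treated over untreated OPCs, with 95% intervals from limma. The dashed line is the median of all 607 miRNAs at 0.125. The intervals of miR-219a-2-3p, 0.37 to 1.45, and miR-138-2-3p, 0.08 to 0.84, lie above 0, and neither arm passed after adjustment.

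Groups without overlap were thus seen for 2 of the 7 members, both higher with fibrinogen, beside 24.4% of all miRNAs tested that were higher without overlap and 8.73% that were lower, 33.1% together. For these 2 members an exact two-sided permutation test over the libraries gave p = 0.1, the smallest that 3 against 3 can give. The members' share of 2 in 7 is near that of all miRNAs.

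Levels of miRNAs in a library depend on its total, whereas the ratio of 2 arms does not, so the arms were also compared within libraries. For miR-138, both 3p arms were higher relative to miR-138-5p in fibrinogen-treated OPCs. There were 4.76, 5.74 and 5.60 reads of miR-138-2-3p per 1000 reads of miR-138-5p in fibrinogen-treated OPCs, against 3.91, 3.29 and 3.37 in untreated OPCs. For miR-138-1-3p there were 2.96, 3.47 and 3.39 per 1000, against 2.44, 2.46 and 2.10. Neither ratio overlapped between groups. The differences in the log2 ratio were 0.60 and 0.47 (exact two-sided permutation test, p = 0.1 each, adjusted p = 0.175 each over 7 ratios), and they ran from 0.55 to 0.68 and from 0.40 to 0.54 without one library at a time. Ratios were tested on log2(TPM + 1), and each of these rests on 270 to 754 reads of the rarer arm per library.

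The ratio of miR-138-2-3p to miR-138-1-3p, the arms that mark the hairpins on chromosomes 8 and 9, was 1.61, 1.65 and 1.65 in fibrinogen-treated OPCs, against 1.6, 1.34 and 1.6 in untreated OPCs. The chromosome 8 hairpin thus gave more reads of its 3p arm in every library. The log2 difference of 0.12 (exact two-sided permutation test, p = 0.1, adjusted p = 0.175) was 0.04 without untreated library 2. Across all libraries the 2 arms had the most similar profiles of the 21 pairs of members, with a root mean square difference of 0.103 in log2(TPM + 1) after centring, where the pairs ran from 0.103 to 0.662.

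For miR-219a the arms did not keep a fixed ratio. There were 1.87, 1.21 and 2.17 reads of miR-219a-2-3p per read of miR-219a-5p in fibrinogen-treated OPCs, against 1.31, 0.767 and 0.893 in untreated OPCs. The ratio was above 1 in all fibrinogen-treated libraries and in untreated library 1, and the groups overlapped because untreated library 1 lay above fibrinogen-treated library 2. The log2 difference was 0.81 (exact two-sided permutation test, p = 0.2, adjusted p = 0.28). The remaining ratios hold miR-219a-1-3p with its 1 to 7 reads: miR-219a-2-3p over miR-219a-1-3p differed by 0.72 (p = 0.1 in the exact test, adjusted p = 0.175), which was 0.20 (p = 0.9) with a pseudocount of 0.1, and miR-219a-1-3p over miR-219a-5p by 0.09 (p = 1.0, adjusted p = 1.0), which was 0.62 with that pseudocount. For miR-338 there were 2.62, 2.49 and 3.09 reads of miR-338-5p per 1000 reads of miR-338-3p in fibrinogen-treated OPCs, against 1.83, 2.83 and 2.75 in untreated OPCs, with a log2 difference of 0.16 (p = 0.6 in the exact test, adjusted p = 0.7) that was -0.01 without untreated library 1.

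The ratio of the less to the more abundant arm was computed in the same way for the 159 arm pairs of one hairpin in which both arms were tested. Where 2 hairpins give the same arm, as for miR-138-5p, its reads can come from either. The median log2 difference was 0.041, and the ratio was higher without overlap in 18.2% and lower without overlap in 10.7%. The differences of miR-138-2-3p and miR-138-1-3p over miR-138-5p stood above those of 90.6% and 85.5% of these pairs, and that of miR-338-5p over miR-338-3p above 62.3%. The miR-219a arms were not among these pairs. This comparison was added after the ratios of the members had been seen.

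**Figure D3:**
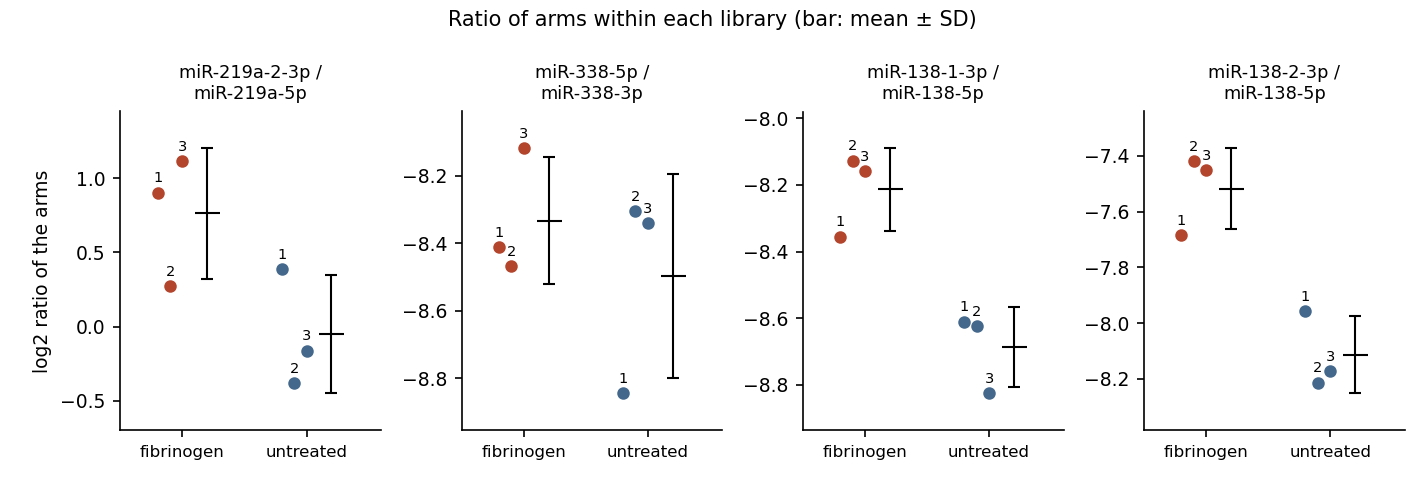
Log2 ratio of 2 arms in each library, fibrinogen-treated left and untreated right, each panel with its own axis. Bars give the mean ± SD. The reads of miR-219a-5p and of miR-138-5p can come from 2 hairpins each. Both miR-138 ratios separate the groups, with differences of 0.47 and 0.60, while the miR-219a and miR-338 ratios overlap.

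The 4 abundant arms did not vary as one group across the libraries. Fibrinogen-treated library 3 was low for miR-219a-5p and miR-338-3p, untreated library 2 was high for miR-138-5p, and untreated library 2 was low for miR-219a-2-3p. The known miRNAs of at least 10 TPM with the most similar profile over the 6 libraries were searched for each, among 328 candidates, by the root mean square difference of log2(TPM + 1) after centring each miRNA on its own mean. For miR-138-5p they were miR-592-5p, miR-379-3p and miR-30c-5p, at 0.059, 0.0622 and 0.0627, where the median candidate was at 0.301. All 3 had their highest value in untreated library 2, as miR-30c-5p with 7767, 7564 and 6495 TPM in fibrinogen-treated OPCs, against 6589, 9964 and 8114 TPM in untreated OPCs.

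For miR-338-3p the nearest were miR-15a-5p, miR-299a-5p and miR-34a-5p, at 0.128, 0.138 and 0.148, with a median of 0.345. miR-34a-5p, a target of p53, had 2829, 2019 and 1310 TPM in fibrinogen-treated OPCs, against 2128, 2081 and 2320 TPM in untreated OPCs, again lowest in fibrinogen-treated library 3. For miR-219a-5p they were miR-96-5p, miR-455-5p and miR-340-5p, at 0.204, 0.225 and 0.26, with a median of 0.433. For miR-219a-2-3p they were miR-361-3p, miR-205-5p and miR-140-3p, at 0.244, 0.245 and 0.253, with a median of 0.516. miR-140-3p, a miRNA known from cartilage, had 533, 479 and 570 TPM in fibrinogen-treated OPCs, against 338, 265 and 292 TPM in untreated OPCs. With 6 libraries such likeness is a description and carries no test.

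**Figure D4:**
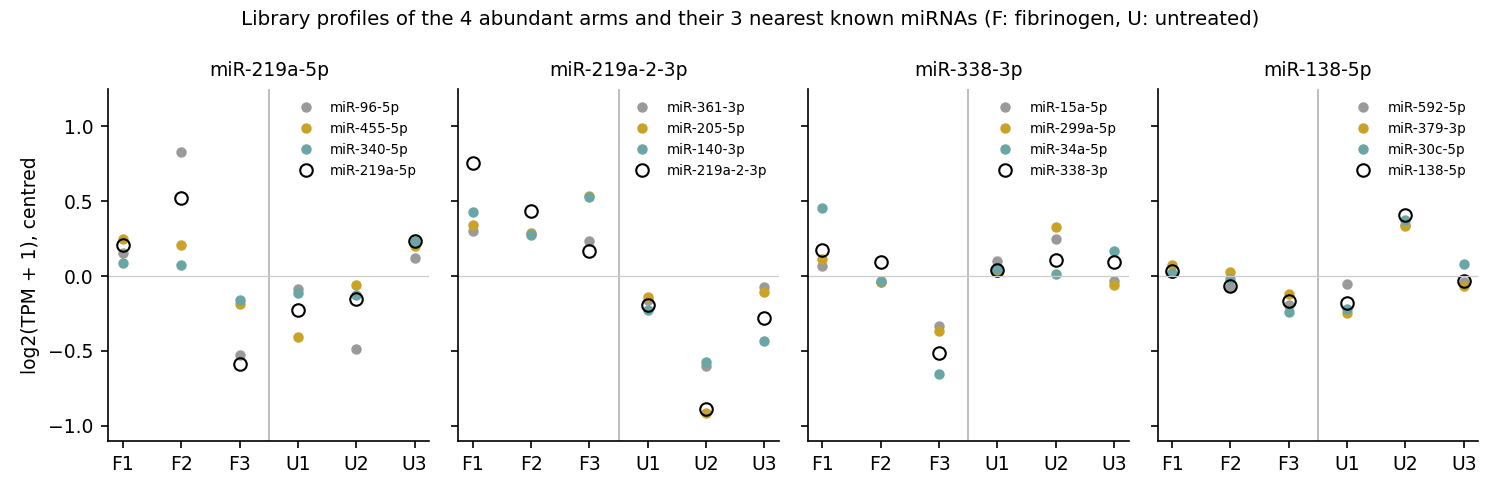
Log2(TPM + 1) of miR-219a-5p, miR-219a-2-3p, miR-338-3p and miR-138-5p (open circles) and of the 3 nearest known miRNAs of each (filled), centred on each miRNA's mean, in fibrinogen-treated (F1 to F3) and untreated (U1 to U3) libraries. Library F3 is low for miR-338-3p and miR-219a-5p, and U2 is high for miR-138-5p.

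The members were set beside 2 further lists of the OL lineage, which were chosen with earlier results of these data known. Of 5 other miRNAs reported to promote OL differentiation or myelination, 0 passed limma, 3 were higher at an unadjusted p under 0.05, edgeR's quasi-likelihood test called 0 and DESeq2 called 1 higher. Over all miRNAs 20.1% were higher at an unadjusted p under 0.05 and 4.45% by DESeq2. The median log2 fold change was 0.43, beside 0.125 over all miRNAs. miR-184-3p, reported to favour the OL fate of neural progenitors, had 16.7, 15.6 and 19.6 TPM in fibrinogen-treated OPCs, against 8.0, 5.80 and 10.8 TPM in untreated OPCs. Its groups did not overlap, and its log2 fold change of 1.02 (standard error 0.24) had an adjusted p of 0.0689 from limma, of 0.0203 from DESeq2 and of 0.0264 from limma without untreated library 3. miR-146a-5p, a miRNA of the inflammatory response that also aids OPC differentiation, had 437 ± 45.3 TPM in fibrinogen-treated and 327 ± 60.2 TPM in untreated OPCs (SD, n = 3 each; log2 fold change 0.43, adjusted p = 0.175 from limma). miR-700-5p had 0.48, miR-23a-3p, which lowers lamin B1, had 0.17, and miR-32-5p had -0.19.

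Of 13 miRNAs reported to keep OPCs dividing or immature, 0 passed limma, 2 were higher and 2 lower at an unadjusted p under 0.05, edgeR's quasi-likelihood test called 0 and DESeq2 called 2 lower. Over all miRNAs 20.1% were higher and 5.6% lower at an unadjusted p under 0.05, and DESeq2 called 4.45% higher and 6.1% lower. The fold changes of 8 were above 0 and of 5 below 0, with a median log2 fold change of 0.16, beside 0.125. The 2 higher at an unadjusted p under 0.05 were miR-125a-3p (log2 fold change 0.66, adjusted p = 0.132 from limma) and miR-92a-3p. The 2 that DESeq2 called lower, miR-19a-3p and miR-19b-3p, belong to the proliferative miR-17-92 cluster. miR-19b-3p had 374, 409 and 297 TPM in fibrinogen-treated OPCs, against 436, 481 and 495 TPM in untreated OPCs, which on the log2 scale is -0.40 (standard error 0.15; adjusted p = 0.17 by limma and 0.0174 by DESeq2). miR-19a-3p had 12.8 ± 3.05 and 20.9 ± 4.63 TPM (SD, n = 3 each; log2 fold change -0.67, adjusted p = 0.155 from limma and 0.041 from DESeq2). From the same cluster miR-92a-3p had 57 ± 2.70 TPM in fibrinogen-treated and 39.2 ± 6.84 TPM in untreated OPCs (SD, n = 3 each; log2 fold change 0.54, adjusted p = 0.119 from limma), so its members did not share one direction in value. miR-9-5p, the most abundant miRNA of the libraries, had a log2 fold change of -0.07 (adjusted p = 0.439 from limma). Its groups did not overlap, at 255294 to 261003 TPM in fibrinogen-treated and 265728 to 280057 TPM in untreated OPCs. Of all miRNAs, 8.73% were lower without overlap. The sum of this list, mostly miR-9-5p, did not overlap either, at 266320 to 272850 and 278874 to 293326 TPM.

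**Figure D5:**
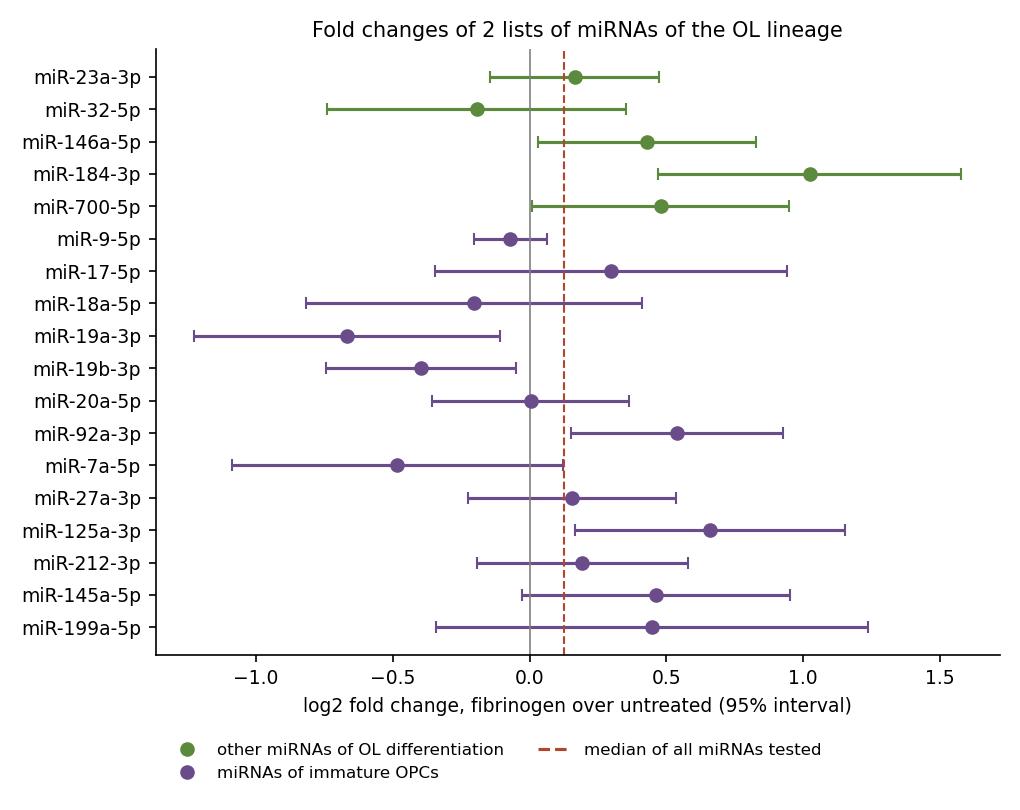
Log2 fold change with 95% intervals from limma, fibrinogen-treated over untreated OPCs, for 5 other miRNAs of OL differentiation (green) and 13 miRNAs of immature OPCs (purple); the dashed line is the median of all miRNAs tested. miR-184-3p, at 1.02, is the highest, and none of the 18 passed after adjustment.

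Levels of miRNAs listed for other cells were also summed, and how pure the OPCs were was not tested. For comparison, the 8 members summed to 11535 to 14419 TPM in fibrinogen-treated and 12302 to 16727 TPM in untreated OPCs. The 8 listed miRNAs of neurons summed to 98195 to 102409 TPM in fibrinogen-treated and 121046 to 128516 TPM in untreated OPCs, and 1 of them, miR-128-3p, passed limma as lower, with 45234 ± 3576 TPM in fibrinogen-treated and 63655 ± 5181 TPM in untreated OPCs (SD, n = 3 each). Without miR-128-3p the sums overlapped, at 53812 to 56764 and 56626 to 68999 TPM. Of the 8, 6 had fold changes below 0, and 2, miR-129-5p and miR-132-3p, above 0. Lower without overlap were 4 of the 8, miR-128-3p, miR-137-3p, miR-153-3p and miR-218-5p, beside 8.73% of all miRNAs. Higher without overlap was 1, miR-129-5p, beside 24.4%. The 3 of mural cells summed to 2845 to 3890 and 2194 to 2599 TPM, the 2 of endothelium to 10599 to 13328 and 10630 to 14101 TPM, and the 5 of microglia and other immune cells to 1318 to 1587 and 1407 to 2114 TPM. The 4 of red blood cells summed to 177 to 206 and 214 to 702 TPM. The 5 of epithelium and choroid plexus summed to 141 to 649 and 41.8 to 182 TPM. All 5 of epithelium had fold changes above 0 (median log2 fold change 1.93), 0 passed limma, and 1 was higher without overlap. Their sum in fibrinogen-treated library 1, 141 TPM, was below that in untreated library 1, 182 TPM. None of the listed miRNAs was at 0 in every library, and miR-145a-5p stands both here and among the miRNAs of immature OPCs. The sums of mural and red blood cells, and that of neurons with miR-128-3p counted, did not overlap between the groups, as miR-219a-2-3p did not. The mural sum was mostly miR-143-3p, at 3147 TPM in fibrinogen-treated and 2192 TPM in untreated OPCs, and the miR-145a arms overlapped. Of the red blood cell miRNAs, miR-144-3p and miR-144-5p did not overlap, while miR-451a and miR-486a-5p did. The part of these cells in the level of miR-219a-2-3p was not tested. In bulk libraries fewer cells of a type and less RNA per cell cannot be told apart.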

How the data were processed

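Small RNA of cultured OPCs was sequenced in 6 libraries, 3 fibrinogen-treated and 3 untreated. As deposited by the authors, the values are RPM, called TPM: low-quality reads were removed, adapters were trimmed (cutadapt 1.15), PCR duplicates were discarded, reads were mapped (Bowtie 1.1.2) and miRNAs were counted with miRDeep2. The paper names GRCm39, the labels mm10. Values were whole multiples of one step for 99.8% to 100% of the entries above 0 (within 0.1 of a read), giving whole reads. Groups follow the treatment label.

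limma 3.58.1 (R 4.3.3) was fitted with a trend to log2(TPM + 1) of the 607 miRNAs reaching 1 TPM in 3 or more libraries. Arm ratios were tested by exact permutation. The comparison with all other arm pairs was added after the members' ratios had been seen. Alternatives were pseudocounts, filters, scalings, known miRNAs only, a replicate block, edgeR 4.0.16 and DESeq2 1.42.0 on recovered reads, and leaving out each library. The fits were tested on simulated data in which the most abundant miRNAs were unchanged and as many miRNAs rose as fell. That setting does not cover the shift of the median fold change seen here. Named miRNAs are the 8 members, listed miRNAs of the OL lineage, miRNAs sharing a seed or locus with a member, and the 3 known miRNAs nearest in profile to each member above 100 TPM. Members and lists were chosen with earlier results of these data known. Of the listed miRNAs, miR-297c-5p was not found in the table.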

Additional observations from a re-analysis of the deposited data

How the results depend on the processing

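Across 18 alternatives, miR-219a-2-3p (log2 fold change 0.69 to 1.05, adjusted p 0.0253 to 0.223), miR-138-2-3p (0.31 to 0.58) and miR-138-1-3p (0.04 to 0.54) stayed above 0 in all. miR-219a-5p was -0.0397, -0.0271 and -0.10 with median-of-ratios scaling, TMM scaling and quantile normalization, and ran from -0.14 to 0.41 without one library at a time. In the same way miR-338-3p ran from -0.29 to 0.0536, miR-138-5p from -0.25 to 0.039 and miR-338-5p from -0.19 to 0.11. miR-338-5p was also -0.11, -0.10 and -0.17 with those 3 scalings, -0.0025 with a pseudocount of 5, -0.0015 with totals that leave out the 10 most abundant miRNAs, and -0.16 with edgeR and -0.16 with DESeq2. DESeq2 called 1 member higher, 1 other miRNA of OL differentiation higher and 2 of immature OPCs lower, against 0 in limma. Without one library at a time the OL differentiation list had 0 to 1 higher calls, and no other setting gave a call in any of these lists. The log2 ratio of miR-219a-1-3p over miR-219a-5p, 0.09, rests on 1 to 7 reads of the first arm, was 0.62 with a pseudocount of 0.1 and -0.048 with one of 5, and ran from -0.17 to 0.36 without one library at a time, and that of miR-338-5p over miR-338-3p ran from -0.0101 to 0.26. That of miR-219a-2-3p over miR-219a-1-3p, 0.72, was 0.20 with a pseudocount of 0.1 and 0.85 with one of 5. The cause of these changes was not tested. Over all 607 miRNAs DESeq2 called 27 higher and 37 lower, edgeR's quasi-likelihood test 8 and 4, and limma 13 and 4. limma called 9 and 5 after TMM scaling, 9 and 4 after median-of-ratios scaling, 8 and 3 without a filter, 7 and 3 at a minimum of 10 TPM and 9 and 1 with known miRNAs only. Without one library at a time it called 0 to 39 higher, the 39 without untreated library 3, and 0 to 6 lower. Libraries of the same replicate number had correlations of deviations from the group means of 0.0377, 0.233 and 0.124, below 0.1 in 1 of 3 pairs. Between libraries of different numbers they ran from -0.195 to 0.0876. Each fibrinogen-treated library had its highest value with the untreated library of the same number. The column headers give the same mouse numbers in both groups without saying that they are the same mice, so the numbers were not taken as pairs. With a replicate block miR-219a-2-3p had 0.91 (adjusted p = 0.0674), no member's call changed, and 11 miRNAs were called higher and 4 lower over all. With 3 libraries a group, a miRNA of few reads cannot be compared, as for miR-219a-1-3p.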
